A study of Rattus norvegicus with 6 samples.

Results

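The circadian clock genes described here are 10 genes of the molecular clock, *Clock*, *Per1*, *Per2*, *Per3*, *Cry1*, *Cry2*, *Nr1d1*, *Nr1d2*, *Dbp* and *Bhlhe40*. They were chosen by name, with earlier results of these data known, as the genes whose symbol is the only one the array's annotation gives for a probe set. All 10 were measured, by 18 probe sets out of 31042, and they stand among 14217 measured genes. A probe set is a group of short probes that together give 1 value per array, and it can read more than 1 transcript. Each gene is given by its brightest probe set, taken as the highest mean of the 6 arrays, and its other probe sets are shown beside that one. The cells were NRK-52E, an established rat line derived from kidney tubules. Cells of both groups had been kept in 10 ng/mL TGF-β1, which pushes epithelia into a mesenchymal transition, during the last 24 h. The shAMPKα2 group (3 arrays) bore a viral short hairpin RNA directed at AMPKα2, which is a catalytic subunit of AMPK, the AMP-activated kinase by which cells sense low energy. The shCtrl group (3 arrays) bore the control virus. Arrays of a group are labelled as biological replicates, and no group lacked TGF-β1 among those analysed here.

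The clock is a set of feedback loops. CLOCK pairs with BMAL1 and binds E-boxes in the promoters of the *Per*, *Cry*, *Nr1d* and *Dbp* genes, and the PER and CRY proteins then bind CLOCK and BMAL1 and repress them. NR1D1 and NR1D2 (REV-ERBα and REV-ERBβ) repress *Bmal1*, which the ROR receptors activate, while DBP and its relatives activate genes through D-boxes, and BHLHE40 represses E-box genes. AMPK is known to mark CRY proteins for degradation and to lower PER stability through casein kinase, and tubule cells have such clocks, which time the transport of sodium. The arrays measured RNA, so nothing here bears on protein stability, and with 1 time of harvest a change of level and a shift in phase cannot be told apart.

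The values are deposited log2 expression values, and differences are shAMPKα2 minus shCtrl in log2 units. The SD over probe sets was 1.76 to 1.82 on the shAMPKα2 arrays and 2.17 to 2.19 on the shCtrl arrays, so the values were less spread with the hairpin. The difference followed the control level, with a median of 0.81 among genes at 5 to 6 and of -0.74 among genes at 8 to 9. For this reason each clock gene is also set beside the median difference of all genes whose control mean lies within 0.5 of its own, and beside its difference with quantile normalization and cyclic loess, which give the arrays like distributions. Over all genes, 85.1% passed the test (limma, adjusted p under 0.05), 43.6% higher and 41.5% lower, so passing says little by itself. *Prkaa2*, which encodes AMPKα2, stood at 6.64, 6.76 and 6.49 with its hairpin and at 6.83, 6.79 and 6.89 on the control arrays, and its difference of -0.21 did not pass (limma, adjusted p = 0.0552), nor did -0.05 with quantile normalization and -0.15 with cyclic loess, while -0.42 with median centring passed (adjusted p = 0.00145). *Prkaa1*, which encodes AMPKα1, fell by 2.34 (limma, adjusted p = 7.04e-09), with -2.04 with quantile normalization and -1.91 with cyclic loess. Of its other 2 probe sets 1 fell by 1.03, and 1 at a low control level of 3.87 rose by 0.55. The differences of the latter after these normalizations, 0.11 and 0.09, did not pass. Of the 8 epithelial markers measured, *Krt8* was at 12.49 in the controls, while 5 of them, *Cdh1* and *Epcam* included, lay under 5 on every array. As deposited 6 of the 8 rose and 1 fell, and with each normalization 1 rose and 1 fell. Of the 10 measured markers of leukocytes, endothelium, podocytes, stroma and other cell types, 10 were higher as deposited and 7 also with both normalizations, where 43.6% and 28.3% of all genes were, and 6 lay within the interquartile range of genes of like control level. Their summed linear level was 771 to 889 in the shAMPKα2 group against 448 to 479 in the shCtrl group. That of the epithelial markers, of which *Krt8* had the highest level, was 4815 to 5421 in the shAMPKα2 group against 5827 to 6123 in the shCtrl group. The leukocyte marker *Ptprc* moved from 4.14 to 5.07, a difference of 0.94 where genes of like level had a median of 0.74, and the part of such cells in the results below was not tested. In RNA from whole cultures, fewer cells of a type and less RNA per cell cannot be told apart.

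Promoters of clock genes are known to carry sites through which the loops act, and those with a match to such motifs, which is no proof of a site, are shown so that the values can be read beside them. RefSeq windows of assembly GRCr8, from 250 bases before to 50 after the start of a gene, were matched for 9 of the 10 genes (11 windows), *Cry1* being the other. Both strands were searched for the E-box CACGTG, its variant CACGTT, the D-boxes TTATGTAA and TTATGCAA, the cores TAGGTCA and TGGGTCA of the element bound by NR1D and ROR proteins, and the cAMP response element TGACGTCA. In the sequences, which run 5′ to 3′ on the strand of the gene, capitals mark the matches. None of these matches overlap each other. The *Per2* window (chr9:99496944-99497243, minus strand) held a D-box 192 bases and an E-box variant 62 bases before the start. The *Bhlhe40* window (chr4:143174200-143174499, plus strand) held an E-box 220 bases before the start.
Per2: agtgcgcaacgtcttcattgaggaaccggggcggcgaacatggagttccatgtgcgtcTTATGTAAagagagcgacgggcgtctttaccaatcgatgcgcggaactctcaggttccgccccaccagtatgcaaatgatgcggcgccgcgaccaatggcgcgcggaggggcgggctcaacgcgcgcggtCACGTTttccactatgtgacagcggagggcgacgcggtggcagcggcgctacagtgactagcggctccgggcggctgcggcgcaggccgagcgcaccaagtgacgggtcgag
Bhlhe40: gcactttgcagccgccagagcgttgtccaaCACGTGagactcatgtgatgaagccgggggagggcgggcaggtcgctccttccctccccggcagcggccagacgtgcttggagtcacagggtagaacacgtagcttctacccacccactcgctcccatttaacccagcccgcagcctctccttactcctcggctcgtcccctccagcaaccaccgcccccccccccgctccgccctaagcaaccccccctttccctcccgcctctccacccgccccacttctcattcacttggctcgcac

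Shorter stretches show the matches of *Nr1d1*, which has 2 starts, and of *Cry2*. The *Nr1d1* E-box lay 191 bases before 1 of these starts (chr10:84229610-84229675, minus strand), and an E-box variant on the opposite strand lay 174 bases before the other (chr10:84231951-84232016, minus strand). That of *Cry2* lay 212 bases before its start, also on the opposite strand (chr3:98860614-98860679, minus strand). The partner gene *Bmal1* held the core TAGGTCA 16 bases before its start (chr1:176766282-176766348, plus strand), the kind of site through which NR1D proteins are known to repress it.
Nr1d1 E-box: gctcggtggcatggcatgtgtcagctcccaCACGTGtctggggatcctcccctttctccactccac
Nr1d1 E-box variant: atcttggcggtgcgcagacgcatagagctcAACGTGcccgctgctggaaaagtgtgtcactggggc
Cry2 E-box variant: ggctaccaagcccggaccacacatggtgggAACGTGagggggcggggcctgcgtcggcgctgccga
Bmal1 core: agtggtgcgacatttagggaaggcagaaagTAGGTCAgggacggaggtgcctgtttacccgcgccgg

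The windows of *Clock*, *Per1*, *Per3*, *Nr1d2* and *Dbp* held none of these letters, which says nothing of sites outside them. Among all 33465 windows, the E-box was found in 6.42%, its variant in 4.83%, TTATGTAA in 0.893% and TTATGCAA in 0.864%. TAGGTCA was found in 2.63%, TGGGTCA in 4.09% and TGACGTCA in 1.83%. Of the 11 windows of clock genes, 5 held at least 1 of the motifs, against 19.7% of all windows. Genes with a match moved in different directions: as described below, *Bhlhe40* fell, the main probe set of *Per2* rose, and those of *Cry2* and *Nr1d1* did not pass.

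As deposited, 3 of the 10 clock genes rose (*Per1*, *Per2* and *Dbp*), 4 fell (*Clock*, *Cry1*, *Nr1d2* and *Bhlhe40*) and 3 did not pass (*Per3*, *Cry2* and *Nr1d1*). That is 70.0% of them, beside 85.1% of all genes. With quantile normalization 4 rose and 5 fell, where 72.7% of all genes passed, 43.8% higher and 28.9% lower. With cyclic loess it was again 4 and 5, where 71.8% of all genes passed, 40.2% higher and 31.5% lower. Median centring gave another balance, with 2 higher and 7 lower, *Per3*, *Cry2* and *Nr1d1* among the lower ones, where 83.1% of all genes passed, 35% higher and 48.2% lower. The 7 genes named kept their direction and passed as deposited and with quantile normalization and cyclic loess, beside 54.7% of all genes. The groups did not overlap in 7 of the 10, beside 87.1% of all genes. Over the 10 the median difference was -0.15 as deposited, -0.22 with quantile normalization and -0.37 with cyclic loess, and the medians over all genes were 0.05, 0.16 and 0.09.

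**Figure D1:**
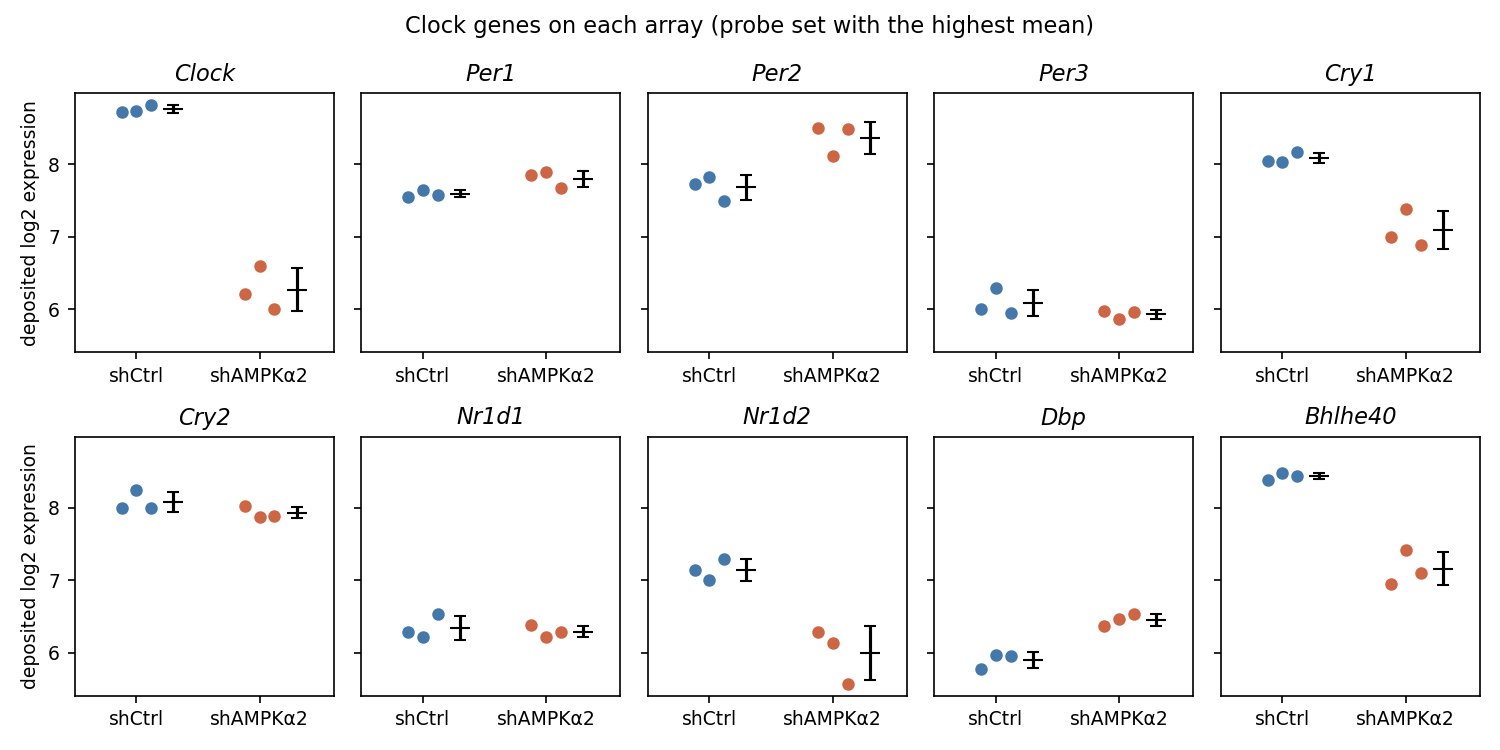
Deposited log2 expression (vertical axis) of each clock gene on the 3 shCtrl arrays (blue) and the 3 shAMPKα2 arrays (orange), with the mean and SD of each group in black. *Clock* fell from a mean of 8.76 to 6.27 and *Bhlhe40* from 8.43 to 7.16, *Per2* rose from 7.68 to 8.36, and the groups overlap in *Per3*, *Cry2* and *Nr1d1*.

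*Clock*, which encodes the partner of BMAL1, had the largest difference of the 10. Its main probe set stood at 8.72, 8.73 and 8.81 in the shCtrl group and at 6.21, 6.59 and 6.0 in the shAMPKα2 group. Every array with the hairpin lay more than 2 log2 units below every control array. The difference of -2.49 (SE 0.13, limma, adjusted p = 4.3e-08) is 5.61-fold on a linear scale. Genes of like control level had a median difference of -0.80, with quartiles of -1.33 and -0.31, and the difference of *Clock* minus that median was -1.69. Its difference was -2.18 with quantile normalization and -2.04 with cyclic loess, but -0.76 when the 4 probe sets of *Clock* were averaged. The other 3 probe sets of *Clock* did not all share this direction. Those at control levels of 6.69 and 5.96 fell by 0.84 and 0.76. The fourth, which the annotation pairs with a RefSeq transcript, rose by 1.03 from 4.46, and by 0.60 and 0.43 after the 2 normalizations.

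Of the genes that pair with *Clock* or stand in for it, *Bmal1* and *Npas2* were lower as well. *Bmal1* had values of 7.14, 7.0 and 7.15 in the controls and of 6.65, 6.54 and 6.54 with the hairpin. Its fall of 0.52 (SE 0.09, limma, adjusted p = 0.000172) lay within the interquartile range of genes of like level, whose median was -0.22. *Npas2*, a relative of *Clock* that can replace it as BMAL1's partner, fell by 0.70 from 5.38 ± 0.18 (SD, n = 3), while genes of like level had a median of 0.82. After the normalizations *Bmal1* had differences of -0.33 and -0.40, and *Npas2* had -1.10 and -1.30. *Bmal2*, a relative of *Bmal1*, rose by 0.42 from 5.78, and its differences of 0.23 with quantile normalization and 0.05 with cyclic loess did not pass.

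The *Period* genes encode repressors of CLOCK and BMAL1, and their probe sets moved apart. For *Per1*, the values were 7.54, 7.64 and 7.58 in the shCtrl group and 7.85, 7.89 and 7.67 in the shAMPKα2 group. The groups lay close together, without overlap. The rise of 0.22 (SE 0.09, limma, adjusted p = 0.0377) was 0.77 with quantile normalization and 0.74 with cyclic loess. Genes of like level had a median of -0.43, and *Per1* lay above their upper quartile of 0.07. The call on the deposited values was fragile: after median centring the difference was 0.00 (adjusted p = 0.983), and without any 1 array other than the third of the shAMPKα2 group it did not pass (differences of 0.18 to 0.24).

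*Per2* was read by 2 probe sets, of which 1 rose and 1 fell. The main one had values of 7.72, 7.82 and 7.49 in the controls and of 8.50, 8.11 and 8.48 with the hairpin, a rise of 0.69 (SE 0.12, limma, adjusted p = 0.00037). The other, paired with a RefSeq transcript, stood at 8.28, 8.30 and 8.34 in the controls and at 7.15, 7.13 and 7.33 with the hairpin, a fall of 1.10 (SE 0.09, limma, adjusted p = 9.33e-07). Neither probe set had overlapping groups. Both directions held with quantile normalization (1.30 and -0.55) and cyclic loess (1.30 and -0.56), so no single direction can be given for *Per2*. The annotation used here does not say which part of the transcript each probe set reads.

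For *Per3*, whose loss leaves the clock running in mice, the groups overlapped in the main probe set. Its values were 6.0, 6.29 and 5.95 in the shCtrl group and 5.97, 5.87 and 5.96 in the shAMPKα2 group. The difference of -0.15 (95% interval -0.37 to 0.08, limma, adjusted p = 0.194) did not pass, while genes of like level had a median of 0.56. With quantile normalization it was -0.34 and with cyclic loess -0.51, both of which passed. The other probe set, at a low control level of 3.47, rose by 0.49, and its differences of 0.12 and 0.11 after the normalizations did not pass.

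The *Cryptochrome* genes encode the proteins whose stability AMPK is known to lower. *Cry1* was read by 1 probe set, at 8.04, 8.03 and 8.16 in the shCtrl group and at 7.0, 7.38 and 6.89 in the shAMPKα2 group. All hairpin arrays lay below all controls, and *Cry1* fell by 0.98 (SE 0.12, limma, adjusted p = 2.06e-05), or 1.98-fold. It fell by 0.49 with quantile normalization and by 0.50 with cyclic loess. Genes of like level had a median of -0.61 and quartiles of -1.12 and -0.11, so the difference of *Cry1* as deposited lay within their interquartile range.

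*Cry2* stood at 7.99, 8.24 and 8.0 in the shCtrl group and at 8.02, 7.87 and 7.89 in the shAMPKα2 group in its main probe set. The groups overlapped, and the difference of -0.15 (95% interval -0.36 to 0.06, limma, adjusted p = 0.164) did not pass. It was 0.49 with quantile normalization and 0.46 with cyclic loess, both of which passed, and -0.36 after median centring, which also passed. The other probe set of *Cry2*, paired with a RefSeq transcript, had values of 6.25, 6.01 and 6.12 in the controls and of 7.35, 7.09 and 7.30 with the hairpin. It rose by 1.12 (SE 0.10, limma, adjusted p = 2.26e-06), by 1.31 with quantile normalization and by 1.15 with cyclic loess. The direction of the main probe set thus depended on the scaling, while the second one rose in all of them.

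*Bhlhe40*, which encodes a repressor that competes for E-boxes and is known to respond to TGF-β, was lower with the hairpin. Its values were 8.38, 8.47 and 8.43 in the shCtrl group and 6.95, 7.41 and 7.10 in the shAMPKα2 group. The control arrays lay within 0.1 of each other and all hairpin arrays below them. The fall of 1.27 (SE 0.11, limma, adjusted p = 1.67e-06) is 2.41-fold, and it was 0.72 after both normalizations. Genes of like level had a median of -0.72 and a lower quartile of -1.24, just above the value of *Bhlhe40*. Its relative *Bhlhe41* rose by 0.68 from a low level of 3.52, and its differences of 0.28 and 0.27 after the normalizations did not pass.

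**Figure D2:**
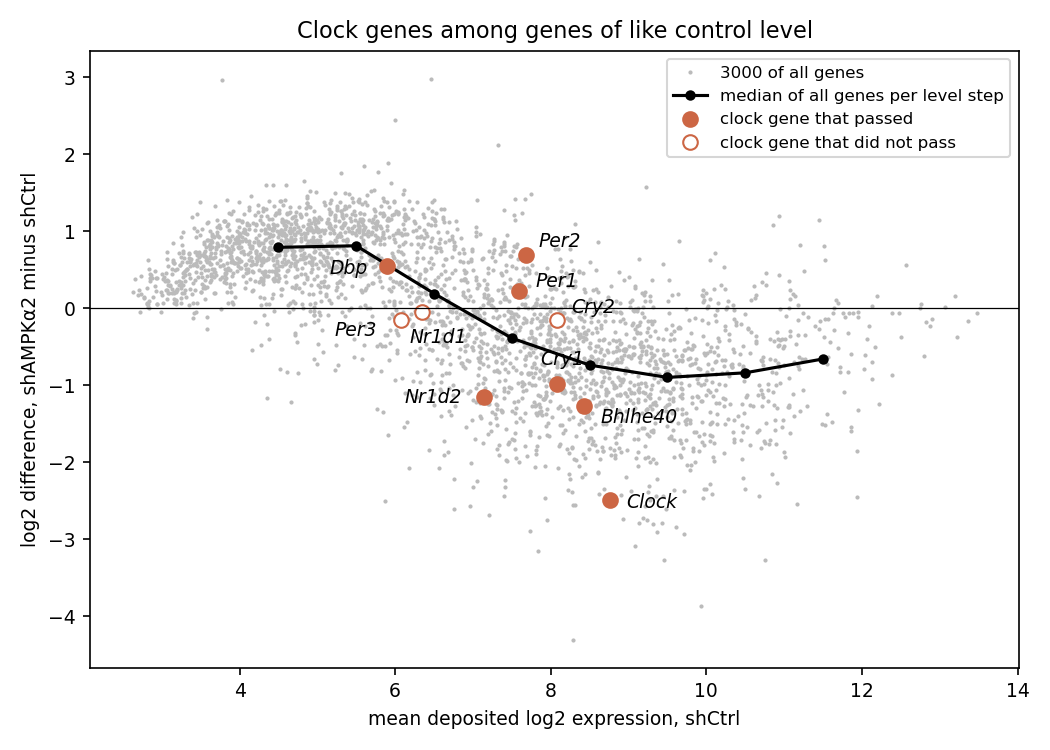
Log2 difference, shAMPKα2 minus shCtrl (vertical axis), against the mean log2 expression in the shCtrl group (horizontal axis), for 3000 of the 14217 genes (grey), the median of all genes per step of control level from 4 to 12 (black) and the 10 clock genes (orange, filled where they passed the test). *Clock* lies furthest below and *Per2* furthest above the median of genes of like level (differences of -1.69 and 1.14 from it), and *Dbp* lies on the median line although it passed.

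The second loop runs through the nuclear receptors NR1D1 and NR1D2, which repress *Bmal1*. *Nr1d2* stood at 7.14, 7.0 and 7.29 in the shCtrl group and at 6.28, 6.14 and 5.57 in the shAMPKα2 group. The hairpin arrays were all lower, the third of them the lowest. *Nr1d2* fell by 1.15 (SE 0.16, limma, adjusted p = 5.79e-05), by 1.11 with quantile normalization and by 1.19 with cyclic loess, while genes of like level had a median of -0.24. A second probe set, at a control level of 6.99, fell by 1.49, and the mean of the 3 probe sets had a difference of -0.77. The third, at a low control level of 4.06, rose by 0.32 with overlapping groups, and its differences of -0.12 and -0.16 after the normalizations did not pass.

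*Nr1d1*, which overlaps the gene *Thra* on the opposite strand, had no difference that passed as deposited. Its values were 6.28, 6.21 and 6.53 in the shCtrl group and 6.38, 6.21 and 6.28 in the shAMPKα2 group, and the groups overlapped almost fully. The difference of -0.05 had a 95% interval of -0.28 to 0.17 (limma, adjusted p = 0.647), so a change of over 0.28 in either direction lies outside it. After the normalizations it was -0.10 and -0.24, and did not pass, whereas with median centring it was -0.27 and passed (limma, adjusted p = 0.0303). The receptors that oppose NR1D at the same element were higher as deposited, where genes of like level had medians of 0.82 (*Rora*) and 0.80 (*Rorb*). *Rora* rose by 1.17 (SE 0.08, limma, adjusted p = 3.62e-07) from 4.73 ± 0.09 (SD, n = 3), by 0.80 with quantile normalization and by 0.58 with cyclic loess, though its other probe set, at 3.35, had a difference of 0.07 that did not pass. *Rorb* rose by 0.72 from 4.62, inside the interquartile range of such genes, and its difference of 0.12 with cyclic loess did not pass. Its other probe set rose by 0.52, and its differences of 0.10 and 0.08 after the normalizations did not pass.

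*Dbp* encodes a D-box activator and is a direct output of CLOCK and BMAL1. It had values of 5.78, 5.97 and 5.96 in the shCtrl group and of 6.37, 6.46 and 6.53 in the shAMPKα2 group, without overlap. Its rise of 0.55 (SE 0.09, limma, adjusted p = 0.000159) was 0.47 with quantile normalization and 0.29 with cyclic loess. Genes of like level had a median of 0.66, and the difference of *Dbp* lay inside their interquartile range. In their main probe sets the other D-box activators rose too. *Hlf* went from 5.49, 5.61 and 5.26 to 6.84, 6.63 and 6.94, a rise of 1.35 (SE 0.11, limma, adjusted p = 1.1e-06), and all of its 4 probe sets rose as deposited, by 0.38 to 1.35. The main probe set of *Hlf* had 1.32 with quantile normalization and 1.05 with cyclic loess. Its lowest 2 probe sets had 0.10 and -0.02 with quantile normalization. With cyclic loess the probe sets of *Hlf* other than the main one, at 0.21, -0.04 and 0.08, did not pass. *Tef* went from 7.23, 7.08 and 7.22 to 8.11, 8.02 and 8.13, a rise of 0.91 (SE 0.08, limma, adjusted p = 2.15e-06), with 1.43 and 1.41 after the normalizations, where genes of like level had a median of -0.26. Of the other 2 probe sets of *Tef*, at control levels of 4.74 and 5.20, the first rose by 0.65 and the second fell by 0.62. With quantile normalization they had 0.22 and -1.04. With cyclic loess the first, at 0.05, did not pass, and the second had -1.22. *Nfil3*, the repressor that competes with these activators for D-boxes, fell by 0.85 (SE 0.08, limma, adjusted p = 2.47e-06), by 0.38 with quantile normalization and by 0.41 with cyclic loess. The fall of *Nfil3* lay within the interquartile range of genes of like level, whose median was -0.54.

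**Figure D3:**
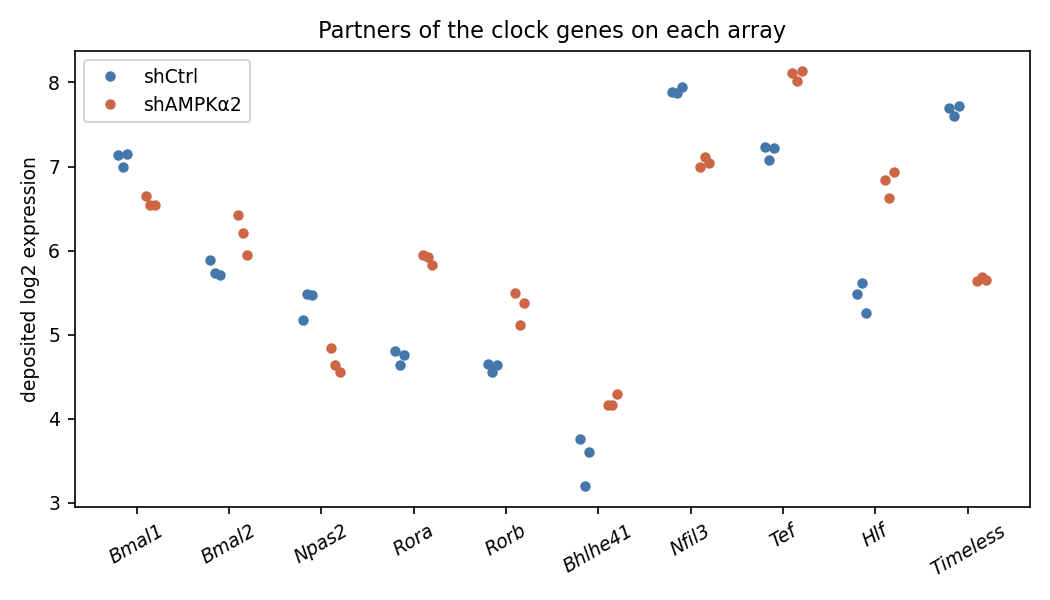
Deposited log2 expression (vertical axis) of 10 partner genes of the clock on the 3 shCtrl arrays (blue) and the 3 shAMPKα2 arrays (orange). The groups do not overlap in any of these 10, nor in 87.1% of all genes, with *Hlf*, *Tef* and *Rora* higher and *Timeless*, *Nfil3*, *Npas2* and *Bmal1* lower in the shAMPKα2 group.

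These partners belong to a list of 12 core and output factors, of which 10 were measured. As deposited 6 rose and 4 fell, with a median of 0.55, where 43.6% of all genes rose and 41.5% fell. Of the 10, 5 lay within the interquartile range of genes of like control level. In the same list, with quantile normalization 4 rose and 4 fell (43.8% and 28.9% of all genes). With cyclic loess 3 rose and 4 fell (40.2% and 31.5% of all genes). *Timeless*, named after a fly clock gene and known in mammals for its role at replication forks, had the lowest difference of the list, -2.01 (SE 0.08, limma, adjusted p = 6.77e-09), with -1.96 and -1.99 after the normalizations.

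Probe sets of 1 gene moved apart in several clock genes. Of the 18 probe sets, 7 rose, 8 fell and 3 did not pass, where 81.9% of all probe sets passed, 47.8% higher and 34.1% lower. Of the 5 clock genes with several probe sets, 3 (*Clock*, *Per2* and *Nr1d2*) had at least 1 that rose and 1 that fell, where 20.5% of all such genes did. In *Clock*, *Per2* and *Nr1d2* the probe set that rose had the lowest control level of its gene. In *Per2* that level was 7.68 against 8.3, both in the upper part of the range. *Per3* and *Cry2* had the same order, with a probe set that rose at the lower level and a main one that did not pass. In *Clock* and *Per2* the opposed directions held after both normalizations, and in *Nr1d2* the rise did not.

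**Figure D4:**
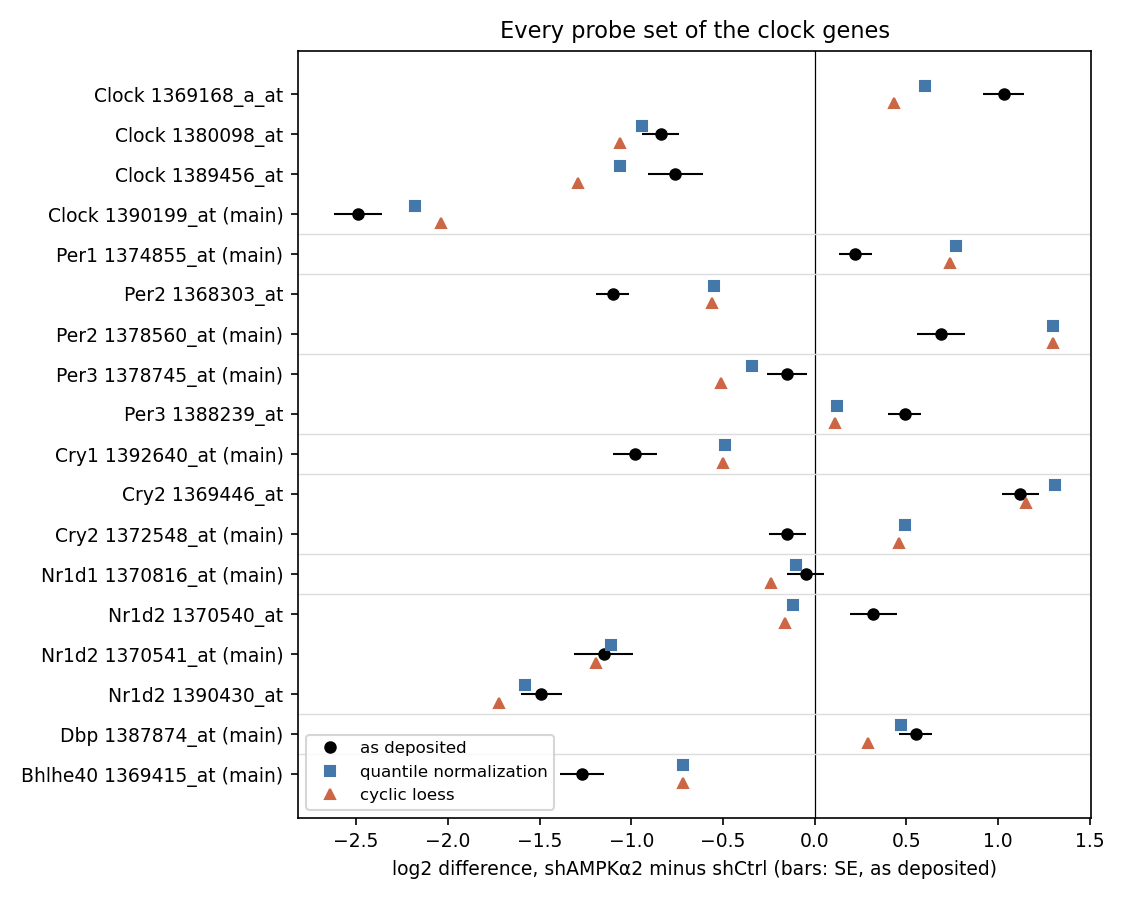
Log2 difference, shAMPKα2 minus shCtrl (horizontal axis), of each of the 18 probe sets of the clock genes as deposited (black, bars show the SE), with quantile normalization (blue squares) and with cyclic loess (orange triangles). The probe sets of *Clock* run from -2.49 to 1.03, those of *Per2* lie on both sides of 0 under each scaling, and the main probe set of *Cry2* crosses 0 between scalings.

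Set beside genes of like control level, 4 of the clock genes lay below the interquartile range (*Clock*, *Per3*, *Nr1d2* and *Bhlhe40*), 2 lay above it (*Per1* and *Per2*) and 4 lay inside (*Cry1*, *Cry2*, *Nr1d1* and *Dbp*). The distances from the median of such genes ran from -1.69 for *Clock* to 1.14 for *Per2*. *Per3* lay 0.71 below it and *Nr1d2* 0.91 below. By its definition an interquartile range leaves out about 1 in 2 of the genes it is drawn from. These places are those of the main probe sets. The other probe set of *Per2* fell by 1.10 from 8.3, where genes at 8 to 9 had quartiles of -1.26 and -0.26. That of *Per3* rose by 0.49 from 3.47, where genes under 4 had quartiles of 0.30 and 0.77. That of *Cry2* rose by 1.12 from 6.13, above the upper quartile of 0.77 at 6 to 7. A probe set of *Clock* rose by 1.03 from 4.46, where genes at 4 to 5 had quartiles of 0.53 and 1.02. Its further ones fell by 0.84 and 0.76 from 6.69 and 5.96, below the lower quartiles of -0.41 and 0.38 there. These are descriptions without a test.

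The proteins that modify PER and CRY were measured by 10 genes of a list of 12. As deposited 3 of them rose and 7 fell (median difference -0.52), where 43.6% of all genes rose and 41.5% fell. With quantile normalization and with cyclic loess 4 rose and 2 fell, with medians of 0.10 and 0.11. Of all genes, 43.8% rose and 28.9% fell with quantile normalization, and 40.2% and 31.5% with cyclic loess. The interquartile range of genes of like level held 7 of the 10. *Csnk1e*, a casein kinase gene through which PER is marked for degradation, rose by 0.66 (SE 0.08, limma, adjusted p = 2.61e-05) and by 1.26 and 1.25 after the normalizations, though its other 2 probe sets, at 0.16 and 0.00, did not pass. *Csnk1d*, a casein kinase gene of the same list, fell by 0.70 as deposited, and its 0.03 and -0.01 after the normalizations did not pass. The other probe sets of *Csnk1d* had -0.57, -1.65, -1.42 and 0.50 as deposited. In the same order they had 0.18, -0.94, -0.80 and 0.55 with quantile normalization, and 0.14, -0.95, -0.80 and 0.39 with cyclic loess. The first of them did not pass after either normalization, while the others did. *Btrc*, which encodes the ubiquitin ligase subunit that recognises marked PER, fell by 1.31 (SE 0.08, limma, adjusted p = 9.97e-08) and by 1.25 and 1.30 after the normalizations. Of its other probe sets 1 fell by 1.22, and 1 at a control level of 4.27 had a difference of 0.15 that did not pass. The deubiquitinase genes *Usp2* and *Usp7*, which act on clock proteins, had differences of 0.93 and -1.27. After the normalizations *Usp2* had 0.84 and 0.62, and *Usp7* had -0.52 and -0.55. All 4 probe sets of *Usp7* fell, whereas the other probe set of *Usp2* fell by 0.40. *Ddb1*, a part of a ligase that acts on CRY1, rose by 0.43 and by 0.85 and 0.96 after the normalizations, and as deposited 1 of its other 2 probe sets, at 0.05, did not pass.

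Of 9 cofactor genes 8 were measured, and as deposited 7 fell and 0 rose, with a median of -0.97, where 41.5% of all genes fell and 43.6% rose. Of these 8, 6 lay within the interquartile range of genes of like control level. At an unadjusted p under 0.05 (limma) the counts were also 7 and 0. With quantile normalization 5 fell and 1 rose, and the counts were the same with cyclic loess. Of all genes, 28.9% fell and 43.8% rose with quantile normalization, and 31.5% and 40.2% with cyclic loess. *Nampt*, whose enzyme makes the NAD+ that links metabolism to the clock, fell by 1.59 (SE 0.08, limma, adjusted p = 3.35e-08), with -0.92 and -0.93 after the normalizations, and genes of like level had a median of -0.86. *Crebbp*, which encodes the acetyltransferase CBP, fell by 1.33, with -0.62 and -0.65 after the normalizations, and all 5 of its probe sets fell. Its main value lay inside the interquartile range of genes of like level. *Hdac3*, whose product acts with NR1D1, fell by 1.27, with -0.51 and -0.55 after the normalizations, while genes of like level had a median of -0.91.

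Among 11 measured genes of 12 that are controlled by the clock in kidney or other tissues, 2 rose and 6 fell as deposited. Their median was -0.41, where 43.6% of all genes rose and 41.5% fell. Of the 11, 7 lay within the interquartile range of genes of like level. With quantile normalization 5 rose and 5 fell (43.8% and 28.9% of all genes), and with cyclic loess 4 rose and 5 fell (40.2% and 31.5%). *Wee1*, a kinase gene that couples the clock to mitosis, fell by 2.22 (SE 0.08, limma, adjusted p = 5.06e-09), with -1.99 and -1.89 after the normalizations, and its other probe set fell by 0.32. *Por* fell by 1.64, with -0.95 and -0.96 after the normalizations, and *Klf10* fell by 1.14, with -0.43 and -0.45. *Scnn1a*, which encodes the α subunit of the epithelial sodium channel and is a clock target in the collecting duct, rose by 1.01 (SE 0.14, limma, adjusted p = 4.01e-05) from 4.99, and by 0.68 and 0.46 after the normalizations. Genes of like level had a median of 0.82. The other probe set of *Scnn1a* rose by 0.42 as deposited with overlapping groups, and its differences of -0.03 and -0.05 after the normalizations did not pass.

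Genes that carry signals to the clock were all measured, 7 of 7, and 2 rose and 5 fell as deposited, with a median of -0.63. Of all genes, 43.6% rose and 41.5% fell as deposited, and 3 of the 7 lay within the interquartile range of genes of like level. After both normalizations 2 rose and 3 fell. Of all genes, 43.8% rose and 28.9% fell with quantile normalization, and 40.2% and 31.5% with cyclic loess. *Nr3c1*, the glucocorticoid receptor gene through which steroids set peripheral clocks, fell by 2.63 (SE 0.10, limma, adjusted p = 5.97e-09) from 9.19 ± 0.03 (SD, n = 3), with -2.21 and -2.05 after the normalizations. Its other probe set fell by 0.64. *Creb1*, which encodes the cAMP-responsive activator of *Per1*, fell by 1.55, and of its other 3 probe sets 1 fell and 2 did not pass. *Sik1*, which encodes a kinase that limits clock resetting, fell by 1.54, with a difference of 0.11 in its other probe set that did not pass. *Crem*, a relative of *Creb1*, rose by 1.05 (SE 0.09, limma, adjusted p = 1.14e-06) and by 1.61 and 1.62 after the normalizations. Of its other 5 probe sets, 4 rose as deposited, by 0.22 to 0.75, and 1 did not pass. With cyclic loess 1 of these 5 rose, at 1.24, 1 fell, at -0.38, and 3 did not pass. *Fos* rose by 0.68 in its main probe set, with 0.59 and 0.39 after the normalizations. The other probe set of *Fos* fell by 0.66, with -0.93 and -1.14 after the normalizations.

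Over the 5 lists together, 13 of 46 measured genes rose and 29 fell as deposited, with a median of -0.61, where 43.6% of all genes rose and 41.5% fell. Quantile normalization gave 16 higher, 19 lower and a median of 0.10, where 43.8% of all genes were higher and 28.9% lower. Cyclic loess gave 14, 19 and 0.05, where 40.2% of all genes were higher and 31.5% lower. In all 3 of these scalings together 9 genes rose and 19 fell, beside 28.3% and 26.4% of all genes. Of the 46, 28 lay within the interquartile range of genes of like control level.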

How the data were processed

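Expression was measured on 6 Affymetrix rat arrays, 3 per group, from 10 µg of total RNA each, per the labels' protocols. The authors deposited log2 values, 1 per probe set and array. The background correction, probe summary and normalization are not stated in the labels used here. After removal of 57 array controls, 20826 of 31042 probe sets had 1 gene in the platform annotation, 436 had several and 9780 none, and only the first were used for genes.

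Groups were compared over all 14217 genes with limma 3.58.1 in R 4.3.3 (lmFit, eBayes, 2-sided), on the deposited log2 values without filter or covariate, with Benjamini-Hochberg adjustment and a threshold of 0.05. The quantile and cyclic loess (3 iterations) values come from the same fit. Signal over background is not given per probe set, the number of arrays limits the precision, and an exact permutation test of 3 against 3 cannot go below 0.1. The members and lists were chosen with earlier results of these data known. All 10 members are named, with all measured core factors and up to 3 rising and 3 falling genes of each other list that passed in 1 direction under all 3 scalings. *Csnk1d* is named as well, beside *Csnk1e*.

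The fit was tested on simulated data for 14217 genes with equal spread in both groups. Of these genes 200 were given a change, whereas 85.1% of all genes passed in the deposited data. The fit recovered 95% of changes of 1 and 57% of changes of 0.5 (log2), and 6 unchanged genes passed. The Benjamini-Hochberg threshold depends on the share of changed genes, so these figures hold for 200 changed genes only. Recovery at the share that passed in the deposited data was not tested. The real median SD was 0.132 with the hairpin and 0.0718 without it. Deviations of arrays with the same replicate number correlated at -0.02, 0.01 and -0.10, so the numbers were not taken to pair the arrays.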

Additional observations from a re-analysis of the deposited data

How the results depend on the processing

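*Clock*, *Cry1*, *Nr1d2*, *Dbp* and *Bhlhe40* kept their direction and passed in each alternative in which they were tested (the scalings, filters, probe set choices, variance models, replicate block and arrays left out). Their sizes did move: with the mean of probe sets *Clock* had a difference of -0.76 and *Nr1d2* of -0.77, and *Cry1*, *Bhlhe40* and *Dbp* had smaller differences with cyclic loess (-0.50, -0.72 and 0.29). *Cry1*, *Dbp* and *Bhlhe40* have 1 probe set each, so the probe set choices could not change them. For *Clock* the most variable probe set was again the main one (-2.49), so its probe set that rose was never taken alone. With the most variable probe set, *Per2* had a difference of -1.10 and *Per3* of 0.49, and with the mean of probe sets *Per2* had -0.21 and *Per3* 0.17, neither of them past the threshold. *Cry2* turned to 0.49 after quantile normalization, 0.46 after cyclic loess, 0.48 with the mean of probe sets and 1.12 with the most variable one. The difference of *Dbp* from genes of like level was -0.11, and 0.05 when levels were taken over all arrays. The causes of these turns were not tested, beyond the choice of another probe set. The number of clock genes that passed was 6 to 7 with each array left out and 6 with the replicate block, where *Per1* did not pass (adjusted p = 0.058). With the lowest 50% of genes left out, fewer genes were tested and 6024 of them passed, 28 of them from the other clock lists. With each array left out, 11573 to 12024 genes and 41 to 42 of the other clock lists passed. The replicate numbers only name the arrays. The block changed no other clock gene's call.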
